A study of Homo sapiens with 6 samples.

Results

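*AOX1*, which encodes aldehyde oxidase 1, was followed together with 9 genes of retinoic acid synthesis, carriage, sensing and breakdown (*ALDH1A1*, *ALDH1A2*, *ALDH1A3*, *CRABP1*, *CRABP2*, *RARA*, *RARB*, *RARG* and *CYP26B1*) in colon fibroblasts in which *LTBP2* was silenced. These 10 genes were taken by symbol from the 60663 genes of the deposited table. *AOX1* was chosen by its measured counts in this same comparison, which were clearly higher after silencing, so its own change is described here without a test. The other 9 were picked for their role, with earlier results of these data known. CCD18Co, a line of normal human colon fibroblasts, received siRNA targeting *LTBP2* (siLTBP2) or control siRNA with no target (siNT) in a 6 h lipid transfection, and cells were frozen 48 h later. Each condition has 3 libraries, numbered 1 to 3, from this single line, and no untransfected cells are among them. Nothing in the labels says whether the libraries came from separate cultures, so p-values measure the spread between these libraries, which may be technical.

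Retinoic acid is the active form of vitamin A. Cells oxidise retinol to retinaldehyde with retinol dehydrogenases such as RDH10, and retinaldehyde to retinoic acid with the ALDH1A enzymes. Aldehyde oxidase 1, a molybdenum enzyme best known from liver and adipose tissue for its action on drugs and aldehydes, can also oxidise retinaldehyde. CRABP proteins carry retinoic acid in the cell, CYP26 enzymes destroy it, and the receptors RARA, RARB and RARG bind DNA with RXR partners and switch on target genes, *RARB* itself among them. In the gut, retinoic acid from stromal and immune cells shapes the mucosa.

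The promoter of *RARB* is known for a retinoic acid response element. RefSeq start sites gave 16 promoter windows for the 10 genes, each from 250 bases before a start to 50 after it on GRCh38.p14. The window at chr3:25428013-25428312 (plus strand) is shown because it held the only DR5 element among them, the direct repeat of receptor sites with a spacer of 5 bases. The element is in capitals.
RARB: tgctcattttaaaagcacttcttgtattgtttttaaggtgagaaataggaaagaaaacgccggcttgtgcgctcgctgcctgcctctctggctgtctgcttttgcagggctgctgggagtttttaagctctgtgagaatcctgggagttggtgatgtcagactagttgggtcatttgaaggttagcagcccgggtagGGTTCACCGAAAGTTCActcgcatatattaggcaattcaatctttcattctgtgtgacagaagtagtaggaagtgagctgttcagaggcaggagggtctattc
A DR5 element was found in 31 of 35116 such windows over all genes, or 0.0883%, on either strand and with no mismatch allowed. *RARB* has 4 windows, and counts per gene do not say from which start its reads came. The DR2 and DR1 forms, with spacers of 2 and 1 bases, were in none of the 16 windows. The core of the antioxidant response element, TGACNNNGC, was in 3 of the 16, and in 13.3% of all windows. The *AOX1* window held none of the 4 motifs, which says only that these letters are not within it. No motif match overlapped another in the 16 windows. Outside the 10 genes, a DR5 element was also found in the window of *CYP26A1*, whose counts were 0 in every library.

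The libraries held between 44663424 and 53576899 reads counted on genes. *LTBP2* was at 25.0, 23.1 and 21.2 CPM (counts scaled to library size after TMM normalization) in siNT and at 6.49, 8.61 and 6.00 CPM in siLTBP2, so the labels hold for the targeted gene. All 8 fibroblast markers were present, and their summed level was 9602 to 12770 CPM in siNT and 9723 to 13740 CPM in siLTBP2. One of them, *PDGFRB*, was lower in siLTBP2 (log2 fold change -0.60, adjusted p = 0.00252). The hepatocyte and the adipocyte markers, of the cells where *AOX1* is best known, each summed to at most 0.142 CPM in any library. Epithelial and leukocyte markers reached at most 0.445 CPM, and endothelial markers at most 2.01 CPM. The 5 smooth muscle markers summed to 219.5 to 246.3 CPM in siNT and 382.2 to 421.6 CPM in siLTBP2. That difference lay in *SMTN* and *ACTG2*, while *MYH11*, *DES* and *CNN1* had at most 5 counts in a library. The part of these markers in the results was not tested. In bulk RNA, fewer cells that express a gene and less RNA of it per cell cannot be told apart.

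*AOX1* (ENSG00000138356) occupies bases 200586014 to 200677064 of chromosome 2 (GRCh38, plus strand), with 35 exons in the canonical transcript. No other annotated gene shares its exons. Its counts were 1538, 1348 and 1545 in siNT and 4183, 4734 and 4825 in siLTBP2. On the CPM scale it was at 33.3, 27.3 and 28.7 in siNT and at 96.0, 100.1 and 91.6 in siLTBP2. The lowest siLTBP2 library was thus well above the highest siNT library, and the libraries of each group lay close together. The means were 29.7 ± 3.12 CPM (SD, n = 3) and 95.9 ± 4.27 CPM (SD, n = 3). The log2 fold change was 1.69 (standard error 0.10), or 3.23-fold, and 86 of the 16920 genes tested had a higher one. With each library left out in turn it stayed between 1.63 and 1.77. Set against all tested genes by level per length, *AOX1* stood at percentile 60.6 in siNT and at percentile 85.1 in siLTBP2.

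**Figure D1:**
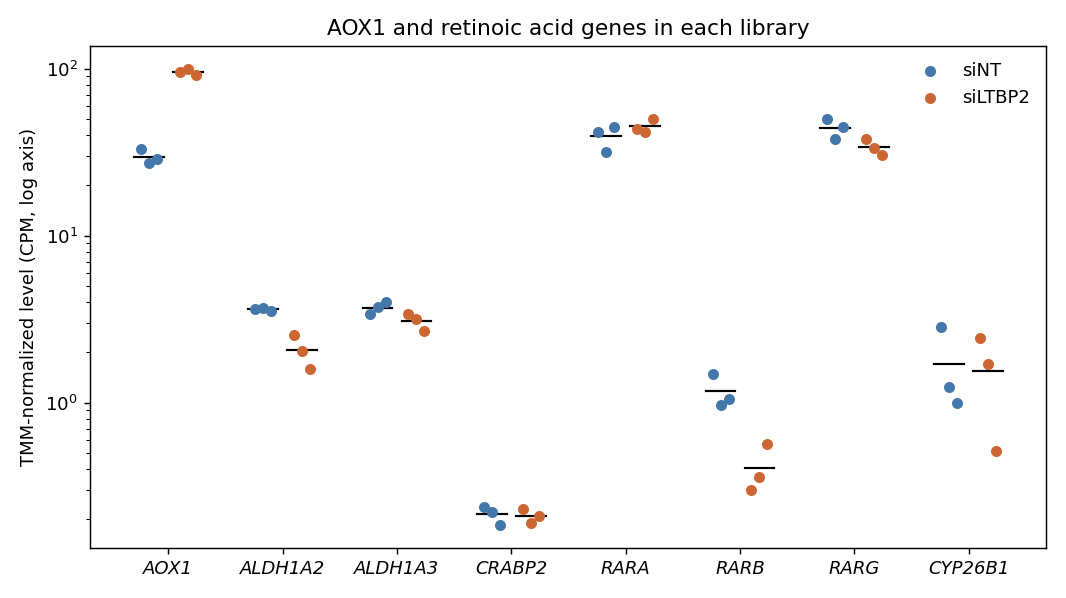
TMM-normalized level in CPM on a log axis for the 8 genes that were tested, with 1 point per library (siNT blue, siLTBP2 orange) and a bar at the mean of 3. The siNT and siLTBP2 points of *AOX1*, *ALDH1A2*, *RARB* and *RARG* do not overlap, while those of *ALDH1A3*, *CRABP2*, *RARA* and *CYP26B1* do.

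Of the 10 genes, 8 passed edgeR's filter on low counts and were tested. *ALDH1A1* and *CRABP1* did not. Among the 7 tested genes other than *AOX1*, 3 had an adjusted p below 0.05, all lower in siLTBP2 (*RARB*, *ALDH1A2* and *RARG*), against 9.51% of all tested genes that were lower and 19.3% that differed in either direction at this threshold. These are called changed here. Groups did not overlap in the same 3 of the 7, against 37% of all tested genes. Genes that changed more than 2-fold with an adjusted p under 0.01 are called deregulated, which held for 2.57% of all tested genes and, among these 7, for *RARB*. The median log2 fold change of the 7 was -0.27, and that of all tested genes was -0.01.

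The retinaldehyde dehydrogenases make retinoic acid from retinaldehyde. *ALDH1A1* (ENSG00000165092), the most widespread of the 3 in adult tissues, had 2 counts in siLTBP2 replicate 2 and 0 in each of the 5 other libraries. A count of 0 allows up to 3 counts, or 0.0556 to 0.0688 CPM in these libraries, counting error only. *ALDH1A2* (ENSG00000128918), the main enzyme of the embryonic mesoderm, was at 3.65, 3.71 and 3.56 CPM in siNT and at 2.55, 2.05 and 1.59 CPM in siLTBP2. All siNT libraries lay within a narrow band and all siLTBP2 libraries below it. *ALDH1A2* fell from 3.64 ± 0.0740 to 2.06 ± 0.477 CPM (SD, n = 3), or -0.82 ± 0.20 (SE) on the log2 scale, with an adjusted p of 0.0146 in edgeR's quasi-likelihood fit, and its adjusted p stayed below 0.05 with any 1 library left out (0.0096 to 0.0479). *ALDH1A3* (ENSG00000184254) was at 3.39, 3.77 and 3.99 CPM in siNT and at 3.4, 3.17 and 2.68 CPM in siLTBP2. Here the groups overlapped, and the log2 fold change of -0.27 had a 95% interval from -0.64 to 0.09 (adjusted p = 0.289 from edgeR). Its antisense gene *ALDH1A3-AS1* shares 1715 exon bases with it and was the more abundant on the CPM scale, with means of 7.75 (siNT) and 5.56 (siLTBP2), and because no source used here says whether counting was by strand, the counts of *ALDH1A3* are uncertain.

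The carriers were scarce. *CRABP1* (ENSG00000166426) had 5 counts in siLTBP2 replicate 2 and 0 in the 5 other libraries, the same library that held the counts of *ALDH1A1*. *CRABP2* (ENSG00000143320), which hands retinoic acid to its receptors, had between 9 and 11 counts in every library. Its log2 fold change was -0.04 with a 95% interval from -0.82 to 0.75 (adjusted p = 0.961 from edgeR), so a change of less than about that size was not detectable at this depth.

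*RARB* (ENSG00000077092), the receptor gene with the DR5 element shown above, had few reads. It lies on chromosome 3 from 24687887 to 25597932 (plus strand). Its counts were 69, 48 and 57 in siNT and 13, 17 and 30 in siLTBP2. In CPM this was 1.49, 0.972 and 1.06 in siNT and 0.298, 0.359 and 0.569 in siLTBP2, with every siLTBP2 library below every siNT library. *RARB* fell from 1.17 ± 0.279 to 0.409 ± 0.142 CPM (SD, n = 3), a fitted 2.82-fold decrease. On the log2 scale this was -1.50 ± 0.31 (SE), with a 95% interval from -2.18 to -0.81 and an adjusted p of 0.00717 in edgeR's fit. The adjusted p stayed below 0.05 with any 1 library left out. It was above 0.01, so that *RARB* no longer counted as deregulated, on leaving out siNT library 1 (log2 fold change -1.30, adjusted p = 0.0305), 2 (-1.61, 0.0165) or 3 (-1.56, 0.013), or siLTBP2 library 1 (-1.32, 0.024) or 2 (-1.41, 0.0342).

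*RARA* and *RARG* carried most of the receptor RNA. *RARG* (ENSG00000172819) was at 50.2, 38.1 and 45.1 CPM in siNT and at 37.8, 33.4 and 30.5 CPM in siLTBP2. The groups were separate by a small margin, with siNT replicate 2 just above siLTBP2 replicate 1. *RARG* fell by 0.39 on the log2 scale (SE 0.12, adjusted p = 0.044 from edgeR), and this was lost on leaving out siNT library 1 (adjusted p = 0.151) or 3 (0.0988), or siLTBP2 library 2 (0.124) or 3 (0.107). *RARA* (ENSG00000131759) was at 42.1, 31.6 and 44.6 CPM in siNT and at 43.8, 41.6 and 50.3 CPM in siLTBP2, with overlapping groups. Its log2 fold change was 0.20, with a 95% interval from -0.09 to 0.49 (adjusted p = 0.334 from edgeR). Its antisense gene *RARA-AS1* had means of 0.925 (siNT) and 0.57 CPM (siLTBP2). Per length (RPKM, over summed exons), the ratio of *RARG* to *RARA* was 1.10, 1.12 and 0.937 in siNT and 0.799, 0.743 and 0.561 in siLTBP2. Each siLTBP2 library had the lower ratio (difference of the mean log2 ratios -0.60, two-sided exact permutation test over libraries, p = 0.1, the lowest value possible with 3 against 3). The ratio was not among the planned results, and with so few libraries this test cannot decide whether it differs.

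*CYP26B1* (ENSG00000003137), which breaks down retinoic acid and is induced by it in many cells, varied within each group more than between them. It was at 2.85, 1.24 and 1.00 CPM in siNT and at 2.43, 1.71 and 0.512 CPM in siLTBP2. Replicate 1 was the highest and replicate 3 the lowest of each group. The log2 fold change was -0.13, with a 95% interval from -1.25 to 0.98 (adjusted p = 0.889 from edgeR), and its sign turned without siNT replicate 1 (0.45) or siLTBP2 replicate 3 (0.30).

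By level per length, the order in siNT was *RARG* (8.68 ± 1.19 RPKM), *RARA* (8.31 ± 1.45), *AOX1* (5.50 ± 0.577), *ALDH1A3* (0.697 ± 0.0562), *ALDH1A2* (0.448 ± 0.00910), *CYP26B1* (0.351 ± 0.209), *CRABP2* (0.199 ± 0.0249) and *RARB* (0.124 ± 0.0295), each with SD and n = 3. Among neighbours in this order, the intervals of mean ± SD overlapped for *RARG* and *RARA*, for *ALDH1A2* and *CYP26B1* and for *CYP26B1* and *CRABP2*, the last pairs through the wide spread of *CYP26B1*. In siLTBP2, *AOX1* came first at 17.7 ± 0.790 RPKM, above *RARA* at 9.54 ± 0.959 and *RARG* at 6.61 ± 0.719 (SD, n = 3). Next came *ALDH1A3* (0.578 ± 0.0691), *CYP26B1* (0.321 ± 0.200), *ALDH1A2* (0.254 ± 0.0586) and *CRABP2* (0.194 ± 0.0181), and each of these overlapped its neighbour in mean ± SD. *RARB* was the lowest of the 8 at 0.0433 ± 0.0151 RPKM. *AOX1* RNA was thus above the RNA of the retinaldehyde dehydrogenases in each condition.

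A further 53 retinoid genes were described, for uptake and storage, retinol and retinaldehyde conversion, breakdown, receptor partners, coregulators and induced targets. Of these, 27 were tested and 8 had a count of 0 in every library. Of the 27, 9 fell, 1 rose and 17 did not pass an adjusted p of 0.05, where 9.51% of all tested genes were lower and 19.3% differed in either direction. Their median log2 fold change was -0.21. The largest change was that of *RDH10*, the retinol dehydrogenase that limits retinoic acid synthesis in embryos. It was at 233.7, 188.3 and 187.7 CPM in siNT and at 62.3, 69.0 and 52.4 CPM in siLTBP2. *RDH10* was thus far more abundant than *AOX1* in siNT on the CPM scale and below it in siLTBP2. It fell by 1.73 on the log2 scale (SE 0.12, edgeR adjusted p = 2.99e-05) and stayed deregulated with any 1 library left out (-1.83 to -1.62). Its antisense gene *RDH10-AS1* had at most 2 counts.

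Of the 19 genes for retinol and retinaldehyde oxidoreductases, 9 were tested, 5 fell and none rose (9.51% of all tested genes fell). *RDH11*, a retinal reductase of the endoplasmic reticulum, fell from 112.2 ± 3.83 to 68.3 ± 7.6 CPM (SD, n = 3), a log2 fold change of -0.72 (adjusted p = 0.000624 from edgeR). *AKR1B10*, an aldo-keto reductase that turns retinaldehyde back to retinol, was at 42.4, 32.1 and 52.6 CPM in siNT and at 17.6, 16.4 and 22.0 CPM in siLTBP2 (log2 fold change -1.18, adjusted p = 0.00113), and without siNT replicate 3 its change was -0.99, under the fold threshold of deregulated genes. *AKR1C3*, another reductase of the family, changed by -0.57 (adjusted p = 0.0195), which was lost without siNT replicate 2 (0.0795) or siLTBP2 replicate 1 (0.0508). *AKR1B10* and *AKR1C3* have close paralogs, so their counts are uncertain. *RDH13*, a mitochondrial member, changed by -0.58 (adjusted p = 0.0362), and this was lost without any one of siNT replicates 1 to 3 or siLTBP2 replicates 1 and 2 (0.0579 to 0.133). *DHRS3*, which reduces retinaldehyde and is induced by retinoic acid, was at 0.106 to 1.00 CPM, with a 95% interval of its log2 fold change from -2.23 to 0.29.

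**Figure D2:**
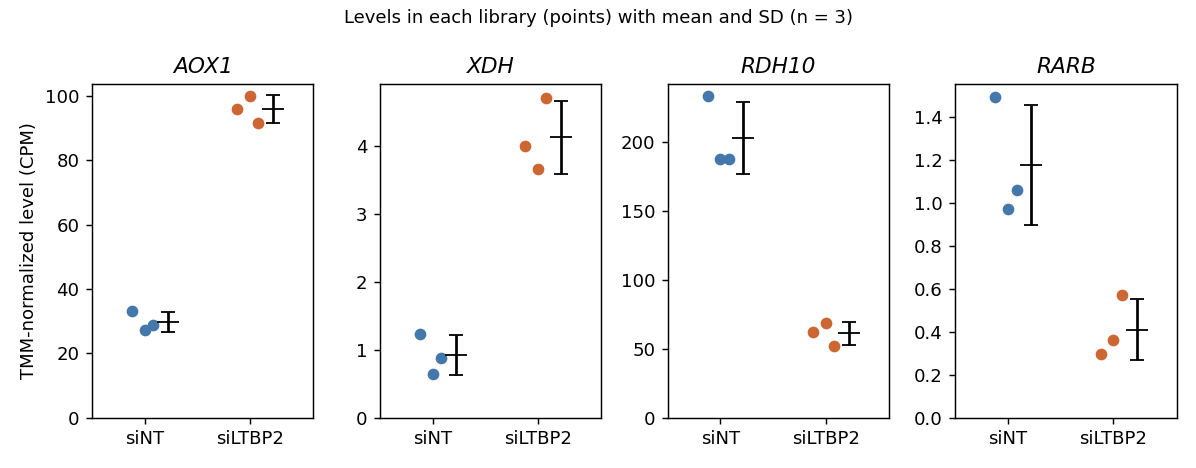
TMM-normalized CPM on linear axes from 0 for *AOX1*, *XDH*, *RDH10* and *RARB*, with 1 point per library and the mean and SD of 3 beside them. The siLTBP2 points of *AOX1* and *XDH* all lie above the siNT points, and those of *RDH10* and *RARB* all lie below them.

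Vitamin A uptake and storage genes were nearly silent, as 1 of 9 was tested, *DGAT1*, and *LRAT*, *STRA6* and *RBP4* had at most 3 counts in a library. *CYP26A1* was at 0 in every library, and *CYP26C1* had at most 10 counts. Of the 5 partner genes, *RXRA*, the usual partner of the retinoic acid receptors, fell by 0.40 on the log2 scale (adjusted p = 0.0215 from edgeR), which was lost on leaving out siNT library 1 (0.0707) or 3 (0.0563), or siLTBP2 library 3 (0.0538). *PPARD*, a receptor that can take retinoic acid from FABP5, fell from 100.5 ± 5.15 to 53.2 ± 6.28 CPM (SD, n = 3), a log2 fold change of -0.92 (adjusted p = 0.000218 from edgeR). *FABP5* itself was at 0.041 to 0.281 CPM. Among the coregulators, the corepressor *NCOR1* had a log2 fold change of 0.02 from 198.8 CPM in siNT, with a 95% interval from -0.17 to 0.20.

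Of 12 genes that retinoic acid induces in other cells, 7 were tested, 1 fell and 1 rose, a share near the 19.3% of all tested genes. The study's own enrichment of Gene Ontology processes lists response to retinoic acid as deregulated on *LTBP2* silencing. The genes behind that term were not compared with these 12. *TGM2*, transglutaminase 2, was at 560.9, 618.1 and 368.5 CPM in siNT and at 293.7, 344.3 and 160.2 CPM in siLTBP2. It fell by 0.96 on the log2 scale (adjusted p = 0.0248 from edgeR), which was lost without siNT replicate 1 (0.0654) or siNT replicate 2 (0.111), and replicate 3 was the lowest library of each group. *RPRD1B*, on the opposite strand, shares 396 exon bases with *TGM2* and had 53.3 CPM in siNT. *MEIS1*, a homeobox gene, rose from 34.5 ± 0.552 to 55.6 ± 4.15 CPM (SD, n = 3), a log2 fold change of 0.69 (adjusted p = 0.000526 from edgeR). *MEIS2*, *NR2F1* and *NR2F2* had log2 fold changes between 0.12 and 0.25 and did not pass the test.

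**Figure D3:**
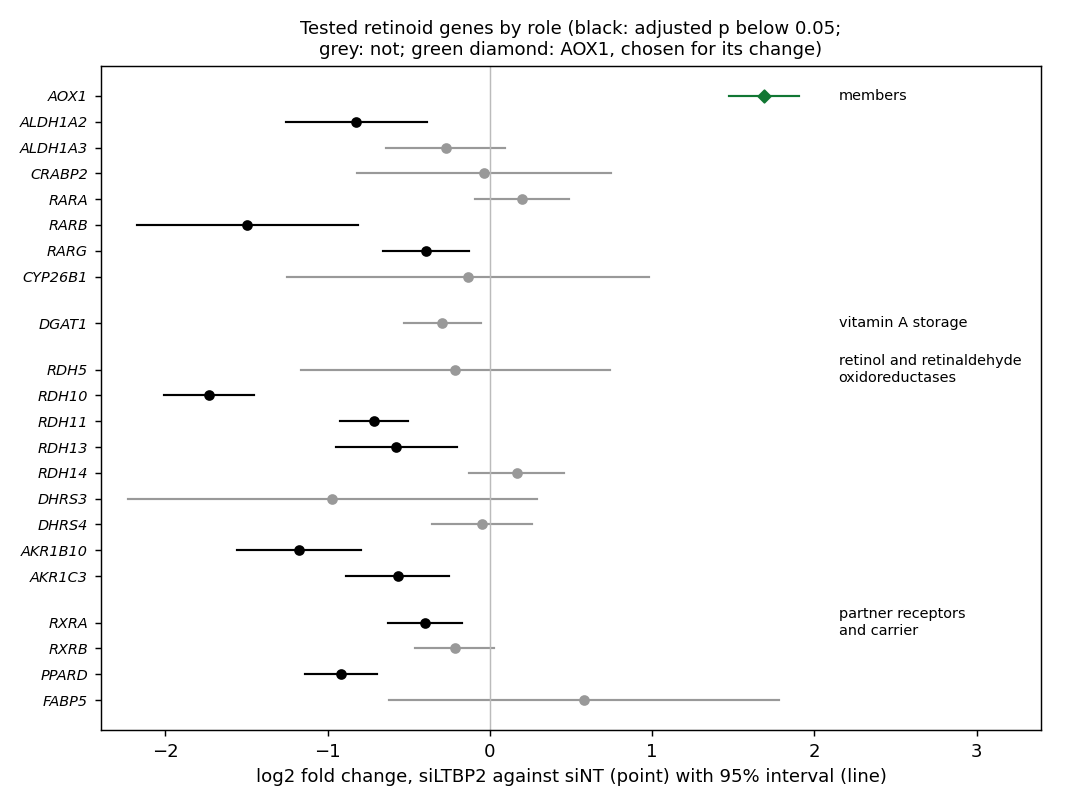
Log2 fold change of siLTBP2 against siNT (point) with its 95% interval (line) for the 8 members and for 14 tested genes of vitamin A storage, retinol and retinaldehyde conversion and receptor partners. Changed genes are black, the others grey, and *AOX1* is a green diamond because it was chosen for its change. The 10 changed genes other than *AOX1* lie to the left of 0, where 9.51% of all tested genes were lower. The coregulators and the genes induced by retinoic acid, with *MEIS1*, which rose, are not drawn.

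Aldehyde oxidase works only with a molybdenum cofactor, so 10 other genes for molybdenum enzymes and the cofactor were described. All 10 were tested, and 1 rose, 1 fell and 8 did not pass, again a share near the 19.3% of all tested genes. The gene that rose was *XDH*, xanthine dehydrogenase, the closest relative of *AOX1* in the human genome. It lies on the minus strand of the same chromosome, from 31334321 to 31414742. Its counts were 57, 32 and 47 in siNT and 174, 173 and 248 in siLTBP2. *XDH* was thus scarce in siNT, at 0.917 ± 0.295 CPM, and reached 4.12 ± 0.535 CPM in siLTBP2 (SD, n = 3), with no overlap between the groups. This was 2.17 ± 0.24 (SE) on the log2 scale (edgeR adjusted p = 0.000229), or 4.50-fold, and it lay between 1.98 and 2.43 with 1 library left out. Per length, *XDH* stayed far below *AOX1*, at 0.679 against 17.7 RPKM in siLTBP2. *MTARC1*, a mitochondrial molybdenum reductase, changed by -1.04 (adjusted p = 0.0173 from edgeR), which was lost on leaving out siNT library 1 (0.0537) or 2 (0.0727), or siLTBP2 library 2 (0.0554). *MOCOS*, whose enzyme puts the sulfur into the cofactor of aldehyde oxidase and xanthine dehydrogenase, was named after its values were seen. It was at 8.47 to 11.4 CPM across the 6 libraries, with a log2 fold change of 0.11 and a 95% interval from -0.20 to 0.41. The cofactor synthesis genes *MOCS1*, *MOCS2*, *MOCS3* and *GPHN* did not pass the test, with log2 fold changes between -0.40 and 0.20. Among 16 aldehyde dehydrogenases outside the ALDH1A group, 12 were tested and none passed an adjusted p of 0.05 in the quasi-likelihood test. The most abundant by CPM were *ALDH18A1*, *ALDH9A1* and *ALDH2*.

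The genes next to *AOX1* were also higher in siLTBP2. *SGO2*, a guardian of chromosome cohesion that ends 1917 bases before *AOX1*, had a log2 fold change of 0.49 (adjusted p = 0.0313 from edgeR), which was lost on leaving out siNT library 1 (0.0931) or 3 (0.0692), or siLTBP2 library 2 (0.0978) or 3 (0.0549), and with total counts in place of TMM (0.0692). *BZW1*, 133529 bases after it and the nearest tested coding gene on that side, rose by 0.88 on the log2 scale (adjusted p = 0.000258). Each of these changes was smaller than the 1.69 of *AOX1*. Beside *RARB*, *TOP2B* lies 45 bases away and had a log2 fold change of 0.01, with a 95% interval from -0.17 to 0.18. *NR1D2*, on the other side, had a log2 fold change of 0.42 (adjusted p = 0.0186), lost on leaving out siNT library 1 (0.0747) or 2 (0.0638), or siLTBP2 library 2 (0.0682).

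The coding genes whose level followed that of *AOX1* most closely were *ROBO4*, *SFRP1*, *NT5E*, *SOX9* and *ANTXR2*. Likeness was the Euclidean distance of log2 CPM over the 6 libraries, each gene centred on its own mean, among coding genes with a mean of at least 1 CPM. The distances ran from 0.212 for *ROBO4*, an endothelial guidance receptor, to 0.381 for *ANTXR2*, a collagen VI receptor. Pearson's r with *AOX1* was between 0.990 and 0.996, and it mainly carries the difference between the groups, which all 5 genes share. *NT5E*, the ecto-enzyme CD73, was at 419.6, 394.9 and 409.9 CPM in siNT and at 1114, 1088 and 1100 CPM in siLTBP2. *SOX9*, a transcription factor of matrix genes, was at 29.4, 23.3 and 30.1 CPM and at 80.9, 77.6 and 69.2 CPM in the same order. *XDH* lay farther off, at a distance of 0.791.

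**Figure D4:**
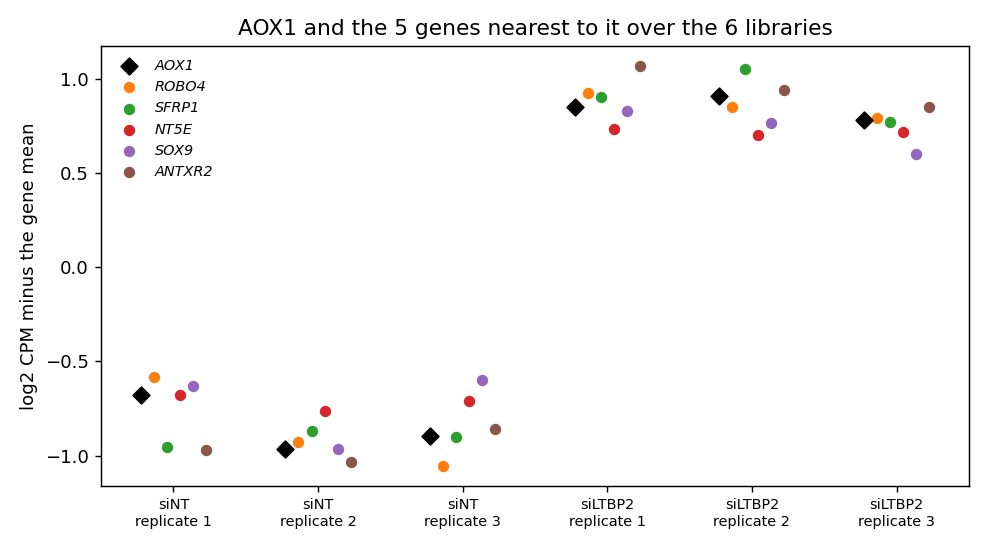
Log2 CPM minus the mean of the gene for *AOX1* (black diamonds) and the 5 coding genes nearest to it, with 1 point per gene in each of the 6 libraries. In siNT the genes lie between -1.05 and -0.58 and in siLTBP2 between 0.60 and 1.07.

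The 3′ UTR of the canonical transcript of each gene was searched for 1 short word, and other transcripts were not searched. The word GCACCCA was taken from an earlier look at these libraries, in which its carriers were lower in siLTBP2, so what follows is a description of the retinoid genes and no independent evidence. Among 12303 tested coding genes whose 3′ UTR had 50 bases or more, 1454 carried it (11.8%), and their log2 fold changes had a median of -0.15 (0.02 in genes without it). The 3′ UTR of *LTBP2* carries it too. Of the 12 retinoid genes that fell, members included, 5 carried it (*RDH10*, *RDH11*, *RXRA*, *PPARD* and *TGM2*), as did 28.5% of all coding genes that fell. Of the 21 that did not pass in either direction, 3 carried it (*DGAT1*, *NCOR1* and *RARA*). Of the 8 tested members only *RARA* carried it, so *RARB*, *RARG* and *ALDH1A2* fell without it in the 3′ UTR searched. The sites of *RDH10*, *DGAT1* and *NCOR1* are not shown. The others are given with the word in capitals and up to 10 bases on either side, on GRCh38, to let the shared bases be seen.
LTBP2 (chr14:74500045-74500071, minus strand): atgggatacaGCACCCAtctacaaaga
RDH11 (chr14:67677417-67677443, minus strand): ttgagggcaaGCACCCAggactgatga
RXRA (chr9:134439606-134439632, plus strand): tccccgtgggGCACCCAggagggccct
PPARD (chr6:35426080-35426101, plus strand): cggcgGCACCCAggcctccctg
TGM2 (chr20:38129757-38129783, minus strand): tcccatgactGCACCCAgctccagggg
RARA (chr17:40357102-40357128, plus strand): gcacttgcctGCACCCAccatgaggca
The part of this word in the changes of these genes was not tested.

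**Figure D5:**
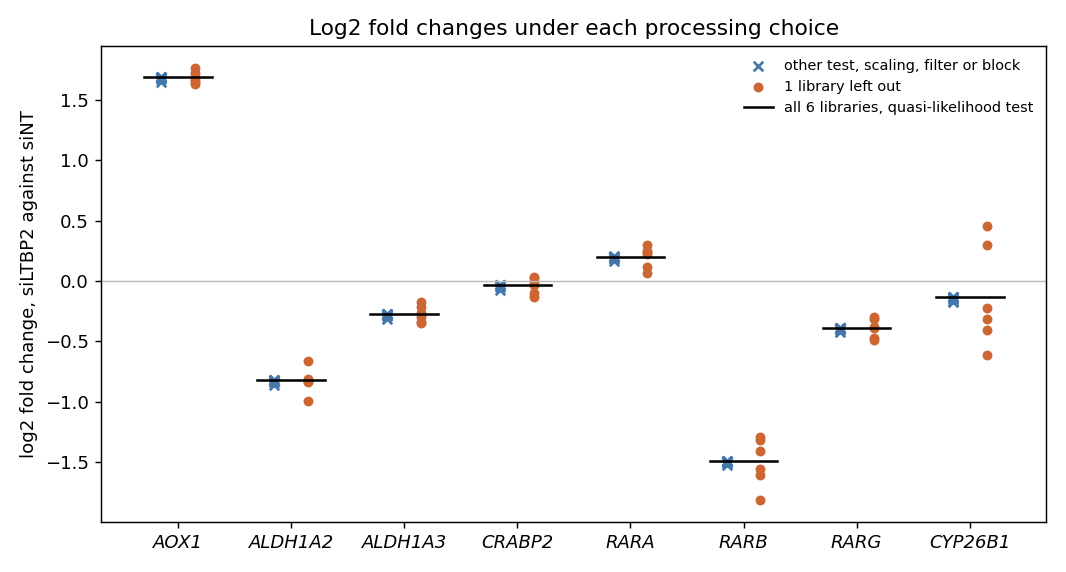
Log2 fold change of siLTBP2 against siNT for the 8 tested members with all 6 libraries (black bar), under another test, scaling, filter or block (blue crosses) and with 1 library left out (orange points). *AOX1* stays between 1.63 and 1.77 and *RARB* between -1.82 and -1.30, while *CYP26B1* runs from -0.61 to 0.45.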

How the data were processed

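Stranded libraries were made from ribosome-depleted total RNA. Reads were mapped by the authors on GRCh38 using STAR in 2 passes (version 2.7.1a in the submitters' processing notes), and they deposited raw counts per Ensembl gene from HTSeq (0.11.2). For the Ensembl release and the strand setting, the answer is not given in the sources used here. No column of another series was present.

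Counts were tested over all genes in edgeR (4.0.16, R 4.3.3) after filterByExpr and TMM scaling, by the two-sided quasi-likelihood test of glmQLFTest on a glmQLFit without replicate block, with Benjamini-Hochberg adjustment over 16920 tested genes. SE is the size of the log2 fold change over the root of F. RPKM divide TMM CPM by the summed exon length in GENCODE 44. The fit was tested on simulated data. Libraries of one group differed by more than sampling noise (chi-square over degrees of freedom, 27.73 to 55.1).

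The members, gene lists, thresholds and the 3′ UTR word were chosen with earlier results of these data known. Genes named were the members, listed genes with an adjusted p below 0.05 or at 10 CPM or more, the 5 genes nearest to *AOX1*, neighbours of deregulated members, genes overlapping a member and *LTBP2*. Others were named after their values were seen. Alternatives were the likelihood ratio test, DESeq2 1.42.0, RLE factors, total counts, no filter, 1 CPM in 3 libraries, a replicate block, another threshold and the omission of each library. Promoter windows were RefSeq's. Some listed genes are counted but not reported here by name.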

Additional observations from a re-analysis of the deposited data

How the results depend on the processing

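The log2 fold changes of *AOX1*, *ALDH1A2* and *RARB* kept their direction, and the last 2 their adjusted p below 0.05, under each alternative run. *RARG* lay between -0.49 and -0.30 with 1 library left out and lost its call in 4 of those 6 fits. *CRABP2* lay between -0.13 and 0.033 and *CYP26B1* between -0.61 and 0.45 there, neither with a call. *RARA* passed with the replicate block (0.21, adjusted p = 0.0369). *TOP2B*, with no call, turned to -0.033 with total counts and to -0.0075 with no low-count filter, and lay between -0.014 and 0.036 with 1 library left out. The count of deregulated genes, 434, was 680 with no low-count filter and 3261 when only an adjusted p under 0.05 was asked for, and 308 to 405 with 1 library left out. Of the further retinoid genes, 2 were deregulated (*RDH10* and *AKR1B10*), and 10 had an adjusted p below 0.05. That 10 became 7 to 9 with 1 library left out and 18 with the replicate block. Counted together with the members other than *AOX1*, 12 fell and 1 rose without the block, and 16 fell and 6 rose with it. The direction was thus less one-sided with the block. The causes were not tested. Between same-numbered libraries the correlation of deviations was 0.298, 0.0832 and 0.428. As one lies under 0.1, no pairing was assumed, although all libraries but siNT replicate 2 correlated best with their own number. Depth limits *RARB*, *CRABP2*, *DHRS3* and *XDH*, with at most 69 counts in siNT, and gives no test for *ALDH1A1* and *CRABP1*.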
